A study of Bos taurus with 8 samples.

Results

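The ZBTB genes code for transcription factors with a BTB domain at one end and C2H2 zinc fingers at the other, and they were followed here in testis tissue of Chinese Red Steppes cattle. Members were the genes of the deposited gene table whose name is ZBTB followed by a number and at most 1 letter, which gave 41 of the 30983 genes listed. The mature group held testicular lobules of 3 adult bulls slaughtered at 24 months, and the immature group held those of 3 calves castrated at 1 day of age, with 1 mRNA library per animal. No genotype or treatment was given. Castration and slaughter fall together with age, so that these cannot be told apart. The testis is a mixed tissue, and in such bulk samples fewer cells of a type and less RNA per cell cannot be told apart.

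The BTB domain holds 2 protein chains together and recruits corepressor complexes such as that of NCOR1 with its histone deacetylase, while the zinc fingers bind DNA. Many members are therefore repressors, and some carry the ubiquitin ligase scaffold CUL3 to their targets. In the testis the best known member is ZBTB16, also called PLZF, which in the mouse keeps undifferentiated spermatogonia from being used up. Other members are known mainly from lymphocytes, the nervous system and cells with methylated DNA.

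The libraries held 14139087 to 15846257 counts, and every ZBTB gene had at least 12 counts in each library. Levels are given as CPM, counts scaled to a common library total with the TMM factors of edgeR. Libraries of 1 age differed by more than counting error, and immature replicates 1 and 3 stood apart most, with 804 and 749 genes more than 2-fold above both others of their group, against 327 for immature replicate 2. The tissue labels were checked with marker lists. The summed level of 6 spermatid markers lay between 7424 and 12441 CPM in mature libraries and between 5.29 and 5.82 CPM in immature libraries. For 6 meiotic markers it was 743 to 840.2 CPM in mature libraries and 26.8 to 32.0 CPM in immature libraries. For 7 Sertoli cell markers it was 352 to 409 CPM in mature libraries and 5229 to 7118 CPM in immature libraries, in the immature libraries mostly AMH and INHA. Of these 7 markers 6 fell, and CLDN11, a tight junction gene, rose, at 142.8, 145 and 131 CPM in mature libraries, against 37.1, 10.7 and 3.37 CPM in immature libraries. No spermatid, meiotic or Sertoli cell marker was at 0 in all libraries of a group. Whether the mix of cell types had a part in the changes below was not tested.

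Of the 41 ZBTB genes, 7 rose and 11 fell in mature testis, and 23 were not called. A call needed both an adjusted p under 0.05 by edgeR's quasi-likelihood test and an absolute log2 fold change above 1, that is, a change over 2-fold. The background was large, because 62% of all 19972 genes tested were called, 31.7% as higher and 30.4% as lower. Of the ZBTB genes 43.9% were called, 17.1% as higher and 26.8% as lower. The median log2 fold change was −0.64 for the family and −0.04 for all genes tested, and the median absolute log2 fold change was 0.92 for the family and 1.47 for all genes tested. An absolute log2 fold change above 2 was reached by 7 ZBTB genes, or 17.1%, and by 37.6% of all genes tested. The 3 mature libraries lay wholly above the 3 immature libraries for 12 ZBTB genes and wholly below them for 19, while among all genes tested 40.9% lay above and 40.9% below. All 41 members passed the filter on low counts, so these counts cover the whole family. On the adjusted p alone, 11 members were higher and 21 lower, or 32 of 41, where 78.4% of all genes tested passed.

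**Figure D1:**
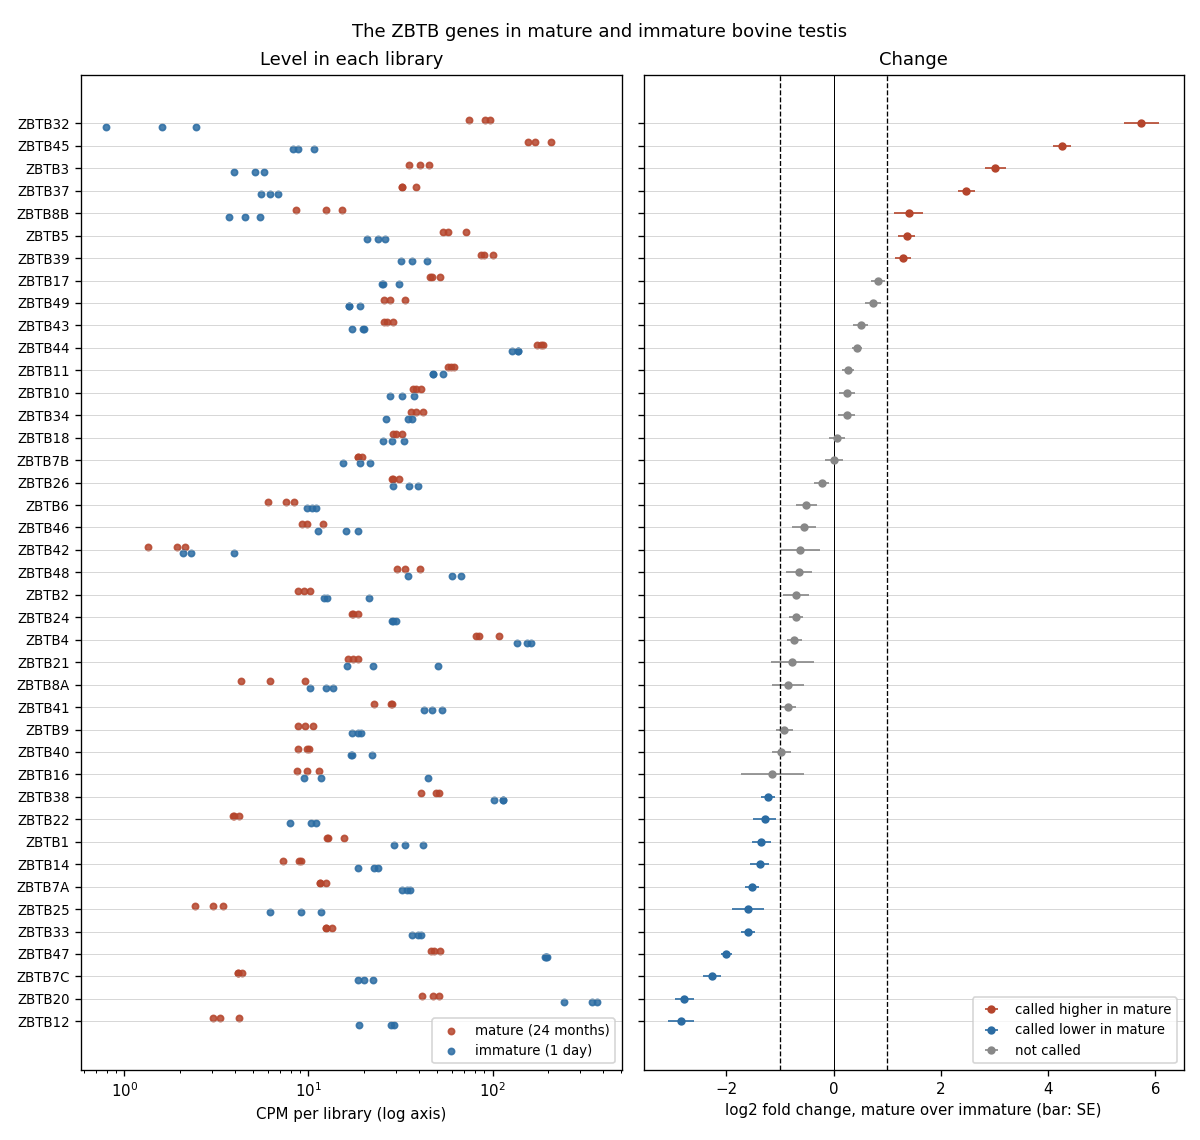
Level and change of each of the 41 ZBTB genes, ordered by change. The left panel shows CPM on a log axis with 1 point per library (3 mature, 3 immature), and the right panel shows the log2 fold change of mature over immature with its SE, with dashed lines at −1 and 1. ZBTB32 and ZBTB45 stand apart at the top with a log2 fold change of 5.74 and 4.26, while ZBTB12, ZBTB20 and ZBTB7C lie lowest, between −2.84 and −2.27.

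The largest rise in the family was that of ZBTB32, a repressor known from lymphocytes and also named testis zinc finger protein in human. It was at 74.1, 91.1 and 96.4 CPM in mature libraries, against 1.60, 2.46 and 0.793 CPM in immature libraries. The groups were far apart, with a mean of 87.2 ± 11.6 CPM in mature testis and 1.62 ± 0.833 CPM in immature testis (SD, n = 3 each), a ratio of 53.9 (log2 fold change 5.74, SE 0.33, adjusted p = 1.3e-06 by edgeR's quasi-likelihood method). The immature values rest on 24, 38 and 12 counts. Of all genes tested, 5.77% had a larger log2 fold change. ZBTB45, known in the mouse for a role in glial cell differentiation, rose next, at 156, 169.7 and 207 CPM in mature libraries, against 10.7, 8.73 and 8.26 CPM in immature libraries. Its mean was 177 ± 26.6 CPM in mature testis and 9.23 ± 1.29 CPM in immature testis (SD, n = 3 each), 19.2 times higher (log2 fold change 4.26, SE 0.17, adjusted p = 1.39e-07).

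ZBTB3 and ZBTB37, for which no firm role is given here, rose by smaller factors that were still well past the spread between libraries. ZBTB3 was at 40.6, 34.96 and 45.2 CPM in mature libraries, against 5.15, 5.76 and 3.96 CPM in immature libraries (log2 fold change 3.02, SE 0.19), and ZBTB37 was at 32.4, 32.4 and 38.5 CPM in mature libraries, against 6.22, 6.79 and 5.55 CPM in immature libraries (log2 fold change 2.47, SE 0.16). The other 3 members that rose changed by 2.46 to 2.64 times. These were ZBTB5, a repressor of the cell cycle inhibitor gene CDKN1A in human cells, and ZBTB39 and ZBTB8B. ZBTB5 was at 57.3, 53.6 and 71.7 CPM in mature libraries, against 23.9, 20.8 and 26.2 CPM in immature libraries (log2 fold change 1.37, SE 0.16). ZBTB39 was at 89.97, 86.1 and 101 CPM in mature libraries, against 31.96, 36.6 and 44.2 CPM in immature libraries (log2 fold change 1.30, SE 0.15). ZBTB8B was at 15.1, 8.51 and 12.5 CPM in mature libraries, against 4.55, 5.43 and 3.70 CPM in immature libraries. In all 7 members that rose, each mature library was above each immature library, as in 40.9% of all genes tested. Their adjusted p ran from 1.39e-07 to 0.00143 by edgeR's quasi-likelihood test. For ZBTB8B, the least precise of these 3 (log2 fold change 1.40, SE 0.27), the mature libraries themselves ranged 1.78-fold. A further gene that the table describes as like it, LOC789869, was counted separately, and how reads were divided between them is not known.

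ZBTB20, a repressor needed in mouse liver and hippocampus, showed one of the widest falls. It was at 50.9, 47.2 and 41.2 CPM in mature libraries, against 347, 369 and 245 CPM in immature libraries, and its mean fell to 46.4 ± 4.87 CPM in mature testis, against 321 ± 66.4 CPM in immature testis (SD, n = 3 each; log2 fold change −2.79, SE 0.18, adjusted p = 1.75e-06). ZBTB12, at a lower level, fell about as far, at 3.31, 4.22 and 3.03 CPM in mature libraries, against 29.1, 28.1 and 18.8 CPM in immature libraries (log2 fold change −2.84, SE 0.24, adjusted p = 9.4e-06 by edgeR's quasi-likelihood method). For both, immature replicate 3 was the lowest of its group and still lay above every mature library. ZBTB47 had the smallest SE of the members that fell, at 46.1, 52.1 and 48.1 CPM in mature libraries, against 196, 192 and 197 CPM in immature libraries (log2 fold change −1.999, SE 0.10). Its immature libraries differed by a factor of 1.03 and its mature libraries by a factor of 1.13.

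Of the ZBTB7 subfamily, ZBTB7C and ZBTB7A fell and ZBTB7B was not called, where 62% of all genes tested were called, 30.4% as lower. ZBTB7C, which in human cells takes part in the control of fatty acid synthesis genes, was at 4.13, 4.15 and 4.34 CPM in mature libraries, against 18.6, 19.9 and 22.3 CPM in immature libraries (log2 fold change −2.27, SE 0.17). ZBTB7A, a repressor of fetal globin genes in human, was at 11.5, 12.5 and 11.5 CPM in mature libraries, against 35.4, 34.5 and 32.3 CPM in immature libraries (log2 fold change −1.53, SE 0.13). The libraries of each group were close together for these 2 genes and the groups did not overlap, as for 81.7% of all genes tested. ZBTB7B, which directs helper T cell fate in the mouse, was at 18.5, 19.6 and 18.5 CPM in mature libraries, against 21.6, 19.1 and 15.5 CPM in immature libraries. Its groups overlapped, and its log2 fold change of 0.01 (SE 0.16) changed sign with scaling by upper quartile factors (−0.20) or by library totals alone (−0.06), and without immature replicate 3 (−0.11). The difference in change between the 3 genes was not tested.

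The members that bind methylated DNA, ZBTB33, ZBTB38 and ZBTB4, were all lower in mature testis, and ZBTB33 and ZBTB38 were called. Of all genes tested, 62% were called, 30.4% as lower. A log2 fold change below 0 was found for 50.8% of all genes tested and 61.0% of the family. ZBTB33, also known as Kaiso, binds methylated CpG pairs through its zinc fingers and contacts the catenin CTNND1. It was at 12.5, 13.4 and 12.5 CPM in mature libraries, against 36.6, 39.2 and 40.9 CPM in immature libraries (log2 fold change −1.60, SE 0.13, adjusted p = 7.03e-06). ZBTB38 was at 51.3, 49.3 and 40.6 CPM in mature libraries, against 114, 114 and 101 CPM in immature libraries (log2 fold change −1.22, SE 0.13, adjusted p = 3.48e-05). ZBTB4 was at 81.4, 84.5 and 108 CPM in mature libraries, against 155, 137 and 163 CPM in immature libraries, which passed edgeR's test but not the fold threshold (log2 fold change −0.73, SE 0.14, adjusted p = 0.00132). The RefSeq annotation used here is of another assembly than that to which the reads were aligned. In it the span of ZBTB4 overlaps CHRNB1 and SLC35G6. CHRNB1 fell (log2 fold change −2.26), and SLC35G6 had a log2 fold change of 8.08 in the opposite direction. The span of ZBTB25 overlaps AKAP5 (log2 fold change −2.42). The spans of 12 members overlap another RefSeq gene, the others being LOC genes or miRNAs, and these include the called ZBTB1, ZBTB5, ZBTB7C, ZBTB20, ZBTB38 and ZBTB47 as well as ZBTB16. Values of overlapping genes are uncertain, since whether the counting used strand is not known from the sources used here.

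Members with a known part in immune cell development moved in both directions: 1 rose, 2 fell and 5 were not called, with a median log2 fold change of −0.63, where 62% of all genes tested were called. ZBTB32 rose, as given above. ZBTB20 fell, and so did ZBTB1, which lymphoid cells of the mouse need to develop, at 12.8, 15.7 and 12.6 CPM in mature libraries, against 41.9, 33.4 and 29.00 CPM in immature libraries (log2 fold change −1.34, SE 0.18, adjusted p = 0.000165). ZBTB24, whose loss in human causes an immunodeficiency with unstable centromeres, was 1.63 times higher in immature testis, at 17.5, 18.7 and 17.2 CPM in mature libraries, against 28.5, 28.7 and 29.9 CPM in immature libraries (log2 fold change −0.71, adjusted p = 0.000924 in edgeR's test). ZBTB46, a mark of classical dendritic cells in the mouse, was at 9.25, 9.78 and 12.05 CPM in mature libraries, against 11.3, 18.5 and 15.99 CPM in immature libraries (log2 fold change −0.56, adjusted p = 0.047), and its groups overlapped. Beside these values, 5 of 7 leukocyte markers fell and 2, CD14 and AIF1, rose, with a median of −1.39. CD14 had a mean of 73.7 CPM in mature and 7.86 CPM in immature testis. AIF1 had 97.4 CPM in mature and 12.6 CPM in immature testis, and these 2 genes weigh most in the mature sum. The summed level of the 7 was 201 to 224 CPM in mature libraries and 127 to 205 CPM in immature libraries, with none at 0, and the part of leukocytes in these changes was not tested.

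Members tied to p53 and CDKN1A included ZBTB5, which rose, and 4 that were not called, where 62% of all genes tested were called. ZBTB17, also known as MIZ1, a partner of MYC that activates cell cycle inhibitor genes, was at 46.8, 45.7 and 52.1 CPM in mature libraries, against 25.5, 25.2 and 30.9 CPM in immature libraries (log2 fold change 0.83, adjusted p = 0.000542). ZBTB49, an activator of CDKN1A in human cells, was at 25.8, 27.7 and 33.6 CPM in mature libraries, against 16.6, 16.7 and 18.96 CPM in immature libraries (log2 fold change 0.74, adjusted p = 0.0022). Both lay higher in every mature library than in any immature library, with ratios of the means of 1.77 and 1.67. Such a separation was found for 40.9% of all genes tested. ZBTB2, which represses this pathway in human cells, was at 10.2, 9.44 and 8.74 CPM in mature libraries, against 12.1, 12.6 and 21.4 CPM in immature libraries (log2 fold change −0.70, adjusted p = 0.0295). Without immature replicate 3 its log2 fold change was −0.39 (adjusted p = 0.0789 by edgeR's test). The fifth, ZBTB4, was described above.

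The remaining members that fell were ZBTB14, ZBTB22 and ZBTB25. ZBTB14, a repressor of the MYC promoter in the mouse, was at 9.07, 8.84 and 7.23 CPM in mature libraries, against 23.7, 18.7 and 22.8 CPM in immature libraries (log2 fold change −1.37, SE 0.18). ZBTB22 was at 4.19, 3.88 and 3.92 CPM in mature libraries, against 10.3, 7.96 and 11.03 CPM in immature libraries (log2 fold change −1.29, SE 0.22), and ZBTB25 was at 3.44, 3.01 and 2.41 CPM in mature libraries, against 11.6, 9.12 and 6.14 CPM in immature libraries (log2 fold change −1.60, SE 0.30). The groups did not overlap for any of the 3, nor did they for 81.7% of all genes tested. The adjusted p of the 11 members that fell ran from 5.34e-07 to 0.00115 by edgeR's quasi-likelihood test.

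ZBTB16, the spermatogonial regulator, was not called, and 1 library decided its value. It was at 8.63, 11.5 and 9.84 CPM in mature libraries, against 9.49, 11.8 and 44.7 CPM in immature libraries. Immature replicates 1 and 2 lay close to the mature libraries, and immature replicate 3 was at 4.21 times their mean. Its log2 fold change came to −1.14 (SE 0.59, adjusted p = 0.118), and it was −0.10 without immature replicate 3 (adjusted p = 0.695) and −1.51 without immature replicate 1 (adjusted p = 0.0404, edgeR's quasi-likelihood test). ZBTB21 had the same shape, at 16.4, 17.5 and 18.5 CPM in mature libraries, against 16.1, 22.4 and 50.7 CPM in immature libraries (log2 fold change −0.77, adjusted p = 0.111), with immature replicate 3 at 2.63 times the mean of the other immature libraries. Without immature replicate 3 its log2 fold change was −0.14, and without immature replicate 1 it was −1.08, a call. These were the 2 ZBTB genes more than 2-fold above both others of the group in immature replicate 3, as were 3.75% of all genes tested. Across the family immature replicate 3 was the highest of its group for 17 of 41 members and the lowest for 20. It was the highest for 36.7% of all genes tested.

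Genes known with ZBTB16 in spermatogonia were set beside it. Of 18 listed, 15 were in the table and 12 were tested, of which 1 rose, 7 fell and 4 were not called, with a median log2 fold change of −1.56. The 8 called are 66.7% of the 12, close to the 62% of all genes tested. The split by direction was less even than over all genes tested, of which 31.7% were called higher and 30.4% lower. GFRA1 and RET, which form the receptor for the niche factor GDNF, fell. GFRA1 was at 2.69, 3.08 and 1.72 CPM in mature libraries, against 7.69, 8.47 and 33.6 CPM in immature libraries (log2 fold change −2.73, SE 0.64, adjusted p = 0.00581), and RET was at 2.88, 3.55 and 4.27 CPM in mature libraries, against 6.35, 8.80 and 25.8 CPM in immature libraries (log2 fold change −1.94, SE 0.53, adjusted p = 0.0105). Both were highest in immature replicate 3, at 4.16 and 3.41 times the mean of the other immature libraries, and without that library their log2 fold changes were −1.69 and −1.09. CCND2, a cyclin of G1 (log2 fold change −3.26, SE 0.23), SALL1, a zinc finger protein (log2 fold change −3.06, SE 0.54), and DDIT4, an inhibitor of the kinase mTOR that ZBTB16 activates in the mouse (log2 fold change −2.08, SE 0.19), fell too. SALL4, a germ cell zinc finger protein that binds ZBTB16 in the mouse, rose (log2 fold change 1.20, SE 0.24) and was chosen after its values were seen. In immature replicate 3, 8 of the 12 tested genes were at their highest among the immature libraries, against 36.7% of all genes tested. All 6 genes of a marker list were, which shares 4 genes with it and holds DDX4 and DAZL, also made by later germ cells, and their sum was 630.3, 599 and 667 CPM in mature libraries, against 129.6, 118 and 207 CPM in immature libraries. The part of spermatogonia in the level of ZBTB16 was not tested.

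Glucocorticoids also raise ZBTB16 in several human cell types, and 12 genes known to respond to these hormones were listed for that reason. Of the 12, 11 were highest of the immature libraries in immature replicate 3, with SLC19A3 the exception, against 36.7% of all genes tested. The median over the list was 3.35 times the mean of the other immature libraries, and 0.992 times over all genes tested. The list was chosen with earlier results of these data known, so these values are a description and not a test. FKBP5, PER1 and DUSP1 were chosen as examples after their values were seen. FKBP5, a chaperone of the glucocorticoid receptor, was at 82.3, 84.6 and 79.7 CPM in mature libraries, against 71.9, 53.04 and 245 CPM in immature libraries. PER1, a clock gene, was at 129.8, 126 and 151 CPM in mature libraries, against 46.8, 50.97 and 188 CPM in immature libraries. DUSP1, a phosphatase of MAP kinases, was at 74.8, 73.3 and 77.7 CPM in mature libraries, against 19.9, 36.1 and 262 CPM in immature libraries. In each of these, as in ZBTB16, immature replicate 3 lay above all other libraries. Several members of the list, among them DUSP1, ZFP36, CEBPD, ERRFI1 and NFKBIA, also respond to other stimuli. Between the ages 1 of the 12 rose, 4 fell and 7 were not called, so that 41.7% were called, against 62% of all genes tested. CEBPD (log2 fold change −3.13, SE 0.70), NFKBIA (log2 fold change −2.54, SE 0.26), ZFP36 (log2 fold change −2.06, SE 0.48) and TSC22D3 (log2 fold change −1.34, SE 0.14) fell and SLC19A3 (log2 fold change 1.34, SE 0.25) rose. Without immature replicate 3 the log2 fold changes of CEBPD and ZFP36 were −2.22 and −1.31. The part of such a response in the level of ZBTB16 was not tested.

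**Figure D2:**
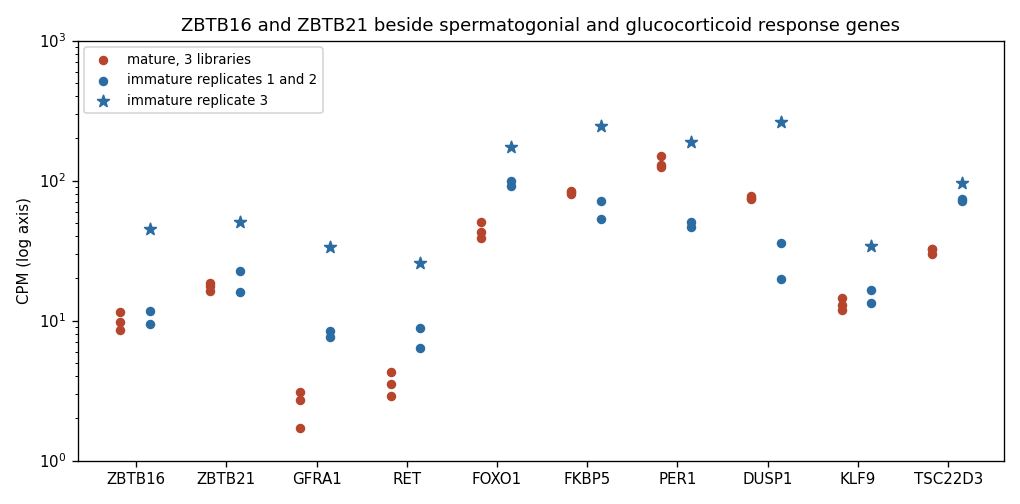
CPM on a log axis of ZBTB16 and ZBTB21, of 3 spermatogonial genes (GFRA1, RET, FOXO1) and of 5 glucocorticoid response genes, 1 point per library, with immature replicate 3 drawn as a star. The genes were chosen after their values were seen. The star lies above both other immature libraries in all 10 genes, for ZBTB16 at 44.7 CPM against 9.49 and 11.8 CPM.

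ZBTB43, which in the mouse acts in germ cells before birth, was higher in each mature library but stayed under the fold threshold, at 25.7, 26.6 and 28.8 CPM in mature libraries, against 17.3, 19.9 and 19.95 CPM in immature libraries (log2 fold change 0.51, SE 0.14, adjusted p = 0.00846). ZBTB44 behaved likewise at a higher level, at 173, 187 and 183 CPM in mature libraries, against 138, 137 and 127 CPM in immature libraries (log2 fold change 0.43, SE 0.10, adjusted p = 0.00313 by edgeR's quasi-likelihood method). Together with ZBTB17 and ZBTB49 these were the 4 members higher in mature testis at an adjusted p under 0.05 without a call, at log2 fold changes of 0.43 to 0.83. By comparison, 78.4% of all genes tested had an adjusted p under 0.05 at any fold in either direction, and 62% were called. Each mature library lay above each immature library for 40.9% of all genes tested.

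In the other direction 10 members passed the test at under 2-fold, at log2 fold changes of −0.98 to −0.51 (ZBTB2, ZBTB4, ZBTB6, ZBTB8A, ZBTB9, ZBTB24, ZBTB40, ZBTB41, ZBTB46 and ZBTB48). In either direction 32 of 41 members passed the adjusted p and 43.9% were called, against 78.4% and 62% of all genes tested. ZBTB40 lay closest to the fold threshold, at 9.88, 10.1 and 8.74 CPM in mature libraries, against 22.3, 17.3 and 17.04 CPM in immature libraries (log2 fold change −0.98, SE 0.18, adjusted p = 0.000994). It was called lower without immature replicate 2 (−1.04) or immature replicate 3 (−1.05), and under 2 other scalings. ZBTB9 was at 9.63, 10.6 and 8.81 CPM in mature libraries, against 19.3, 18.6 and 17.2 CPM in immature libraries (log2 fold change −0.92, SE 0.16), and ZBTB41 was at 28.2, 28.3 and 22.6 CPM in mature libraries, against 46.7, 53.2 and 42.4 CPM in immature libraries (log2 fold change −0.85, SE 0.15). Both were called lower with upper quartile factors. ZBTB48, or TZAP, which binds telomeres and trims them in human cells, was at 30.2, 33.6 and 40.2 CPM in mature libraries, against 59.97, 67.1 and 34.9 CPM in immature libraries (log2 fold change −0.64, SE 0.24, adjusted p = 0.0378 by edgeR's quasi-likelihood method). For ZBTB48 immature replicate 3 lay within the range of the mature libraries and the other immature libraries were well above. ZBTB6 was at 8.38, 6.03 and 7.50 CPM in mature libraries, against 10.4, 9.77 and 10.97 CPM in immature libraries (log2 fold change −0.51, adjusted p = 0.0432).

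For 9 members no difference was found at an adjusted p under 0.05, among them ZBTB16, ZBTB21 and ZBTB7B. The other 32 of 41 passed, as did 78.4% of all genes tested, and the groups did not overlap for 81.7% of all genes tested. ZBTB10, which also binds telomeric repeats in human cells, was at 36.8, 38.2 and 40.96 CPM in mature libraries, against 27.7, 32.3 and 37.3 CPM in immature libraries (log2 fold change 0.25, adjusted p = 0.135). ZBTB11, known from a hereditary intellectual disability in human, was at 57.1, 61.95 and 59.6 CPM in mature libraries, against 47.5, 53.7 and 47.6 CPM in immature libraries, a small difference without overlap that missed the threshold (log2 fold change 0.26, SE 0.11, adjusted p = 0.0599 in edgeR's test). ZBTB18, a repressor of the developing mouse brain, was at 28.8, 32.2 and 29.9 CPM in mature libraries, against 33.2, 28.3 and 25.4 CPM in immature libraries (log2 fold change 0.07, SE 0.14). Its sign changed with upper quartile factors (−0.14), with library totals (−0.003) and without immature replicate 3 (−0.02). ZBTB26 (log2 fold change −0.22, SE 0.15) and ZBTB34 (log2 fold change 0.25, SE 0.16) overlapped between the ages, as did ZBTB42, which acts at the neuromuscular junction and had 20 to 59 counts per library (log2 fold change −0.62, SE 0.36). A missed threshold does not show equal levels.

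The summed level of the family was lower in every mature library than in any immature library. All 41 members together reached 1398, 1440.4 and 1547 CPM in mature libraries, against 1757, 1766 and 1661 CPM in immature libraries. Without ZBTB20 the sum was 1415 ± 81.7 CPM in mature testis and 1408 ± 9.92 CPM in immature testis (SD, n = 3 each). Its ranges then overlapped, at 1347 to 1506 CPM in mature libraries and 1397 to 1416 CPM in immature libraries. The 7 members that rose made up 465 to 572 CPM in mature libraries and 84.1 to 92.6 CPM in immature libraries. The 11 that fell made up 187 to 214 CPM in mature libraries and 727 to 866 CPM in immature libraries. These last 2 sums follow from the calls and are a description. CPM were not divided by transcript length, so long and abundant transcripts weigh most in a sum. The sums also rest on the TMM factors. As a percentage of total counts the family held 0.141, 0.142 and 0.145 in mature libraries, against 0.186, 0.181 and 0.164 in immature libraries. The median shift of the log2 fold change over all genes was −0.20 with upper quartile factors and 0.09 with relative log expression factors. The sums were not computed with those factors.

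**Figure D3:**
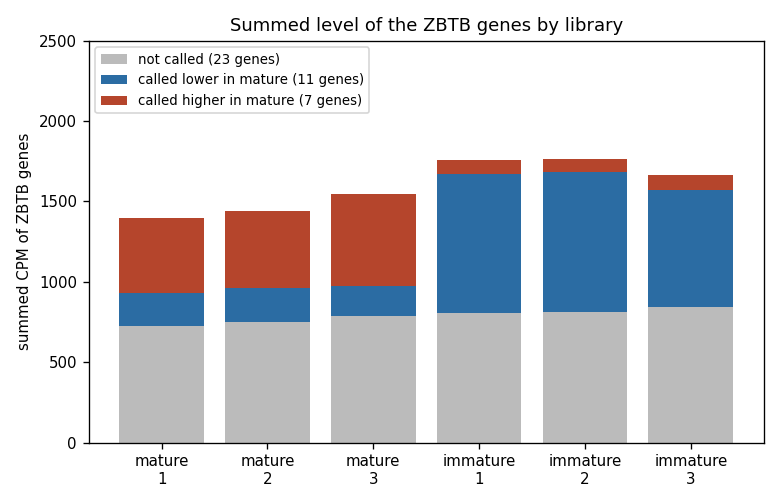
Summed CPM of the ZBTB genes in each library, mature libraries on the left, split into the 23 members not called, the 11 that fell and the 7 that rose. The total is 1398 to 1547 CPM in mature libraries and 1661 to 1766 CPM in immature libraries, with the part of the members that rose much larger in mature libraries.

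All 41 members were matched by symbol to the RefSeq annotation of the assembly ARS-UCD2.0. It was used here for gene order and for the overlap of gene spans. Of the members, 8 stood next to another member among protein-coding genes. ZBTB1 and ZBTB25 are neighbours and both fell (log2 fold change −1.34, SE 0.18, and log2 fold change −1.60, SE 0.30). ZBTB6 and ZBTB26 are neighbours and neither was called, nor were the neighbours ZBTB43 and ZBTB34. ZBTB8A and ZBTB8B differed in direction. ZBTB8A was at 9.63, 4.29 and 6.20 CPM in mature libraries, against 10.2, 12.4 and 13.5 CPM in immature libraries (log2 fold change −0.85, SE 0.30, adjusted p = 0.0288 by edgeR's quasi-likelihood method), while ZBTB8B rose (log2 fold change 1.40, SE 0.27). Mature replicate 1 was the highest mature library for both genes, and without it ZBTB8A was called lower (−1.14). The difference between the 2 changes was not tested. Of the 36 places before and after the 18 called members, 9 held a gene called in the same direction, 9 a gene called in the opposite direction 15 a gene not called and 3 a gene that was not tested or not in the table. ZBTB45 stands between SLC27A5, which fell (−1.13), and TRIM28, a corepressor of zinc finger proteins, which rose (1.22), each far less than ZBTB45. ZBTB32 stands between UPK1A, a uroplakin gene that also rose (2.54), and KMT2B, a histone methyltransferase with a log2 fold change of 0.05.

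**Figure D4:**
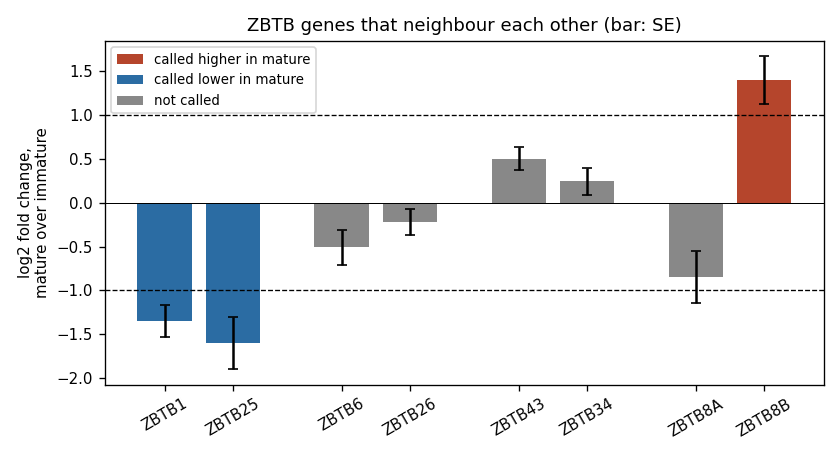
Log2 fold change of mature over immature (bars) with its SE for the 4 pairs of ZBTB genes that neighbour each other, with dashed lines at −1 and 1. ZBTB1 and ZBTB25 both lie below −1, while ZBTB8B lies at 1.40 and ZBTB8A at −0.85.

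The family extends to BTB zinc finger genes that carry other names, of which 8 were listed. Of these, 1 rose, 2 fell and 5 were not called, with a median log2 fold change of 0.11. The 3 called are 37.5% of the list, where 62% of all genes tested were called. HIC1, a repressor that is often silenced in human tumors, fell, at 8.13, 7.70 and 7.78 CPM in mature libraries, against 50.2, 37.6 and 46.9 CPM in immature libraries (log2 fold change −2.51, SE 0.16, adjusted p = 1.64e-06). PATZ1, whose loss impairs sperm formation in the mouse, fell as well, at 13.00, 13.7 and 15.1 CPM in mature libraries, against 50.3, 46.2 and 39.97 CPM in immature libraries (log2 fold change −1.71, SE 0.15, adjusted p = 9.54e-06). HIC2, a close relative of HIC1, rose, at 9.69, 10.5 and 11.02 CPM in mature libraries, against 2.41, 5.56 and 5.75 CPM in immature libraries (log2 fold change 1.18, SE 0.32, adjusted p = 0.00899 by edgeR's quasi-likelihood method). HIC2 was not called without immature replicate 1 (0.87) or with upper quartile factors (0.99).

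Of 27 corepressors and partners of these proteins 26 were in the table and tested. In mature testis 1 rose, 10 fell and 15 were not called, with a median log2 fold change of −0.43. The 11 called are 42.3% of the list, under the 62% of all genes tested, of which 30.4% were called lower. CUL3, the ubiquitin ligase scaffold, was the member that rose (log2 fold change 2.78, SE 0.11). HDAC7, a class IIa histone deacetylase, was at 19.3, 17.6 and 16.2 CPM in mature libraries, against 124, 95.9 and 102 CPM in immature libraries (log2 fold change −2.60, SE 0.15). HDAC3, the deacetylase of the NCOR1 complex, was at 10.3, 9.38 and 7.78 CPM in mature libraries, against 29.3, 27.7 and 24.8 CPM in immature libraries (log2 fold change −1.57, SE 0.17). The groups did not overlap for these genes, as for 81.7% of all genes tested. CTBP2, a corepressor (log2 fold change −2.45, SE 0.12), and BCORL1, a relative of the BCL6 corepressor (log2 fold change −2.09, SE 0.15), fell too. NCOR1 itself, chosen after its values were seen, was not called (log2 fold change −0.41, SE 0.09).

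**Figure D5:**
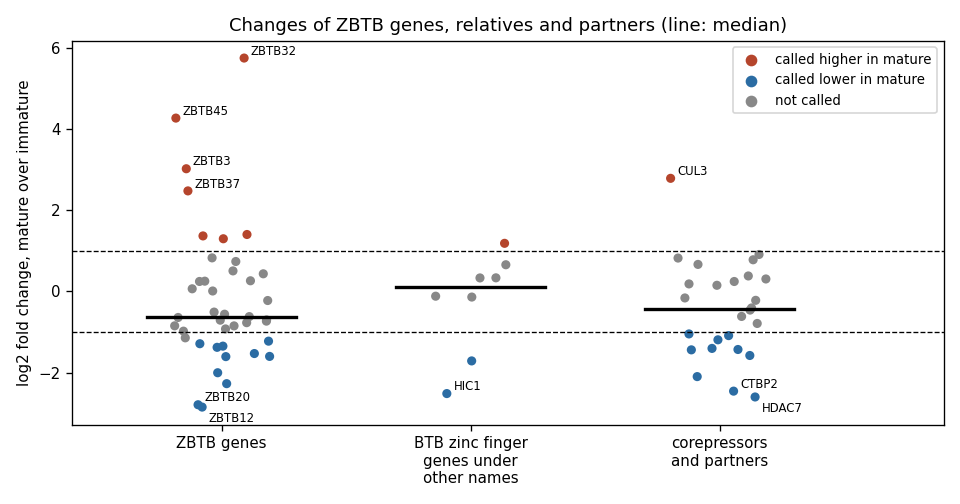
Log2 fold change of mature over immature for the 41 ZBTB genes, the 8 BTB zinc finger genes under other names and the 26 corepressors and partners, 1 point per gene, with the median of each group as a line and dashed lines at −1 and 1. The medians are −0.64, 0.11 and −0.43. ZBTB32, ZBTB45, ZBTB3 and ZBTB37 lie highest in their column and CUL3 is the single partner above 1.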

How the data were processed

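The 6 mRNA libraries (3 mature, 3 immature, 1 animal each) were analysed, and the 2 small RNA pools were not used here. The authors' deposited gene table holds raw counts per gene, for which the reads were aligned to Btau_5.0.1 (Hisat2) after Fast-QC. What counted the reads, on which annotation and with which strand setting is not known from the sources used here. The deposited comparison tables hold group signals, log2 fold changes and FDR of the authors and were not used.

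Counts were compared with edgeR 4.0.16 in R 4.3.3 (TMM factors, filterByExpr, robust quasi-likelihood fit without a replicate block, mature over immature) in 19972 of 30983 genes, with Benjamini-Hochberg adjustment over all of these. The study itself used EBSeq with the same 2 thresholds. An SE was obtained by dividing the log2 fold change by the root of its F value. Alternatives were relative log expression, upper quartile and total scaling, omission of the 50 most abundant genes, DESeq2 1.42.0, limma-voom 3.58.1, a fit with the replicate block, leaving out 1 library at a time, no filter on low counts, a filter of 1 CPM in 3 libraries, glmTreat, and no threshold on the fold. The procedure was tested on simulated counts. Values in every library are given for called members, for those whose call changed under an alternative and for others where they help. Of each other list all members were counted and at most 5 called ones were named with values, unless said otherwise. The members and lists were chosen with earlier results of these data known. EP300, ID4, NANOS3 and PAX7 of the lists were not matched, and no sequences are printed. For 1 gene of the corepressor list, which is part of its counts, no values are reported here.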

Additional observations from a re-analysis of the deposited data

How the results depend on the processing

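All 18 calls among the ZBTB genes kept their direction and stayed past both thresholds under the 15 alternatives computed for single genes, and the number of members called higher was 7 in each of these. The number called lower was 11 to 15, with 15 under upper quartile factors, which moved the median of all genes by −0.20 on the log2 scale and added ZBTB8A, ZBTB9, ZBTB40 and ZBTB41. With each library left out in turn, 7 members were called higher, and 11 to 13 were called lower. With no fold threshold 11 members were higher and 21 lower, and with glmTreat against a log2 fold change of 1 there were 6 and 10. ZBTB7B changed sign to −0.20 with upper quartile factors, −0.058 with library totals and −0.11 without immature replicate 3 (−0.11 to 0.11 with 1 library left out at a time), and ZBTB18 to −0.14, −0.0034 and −0.021 in the same order (−0.021 to 0.16), none of them called. Among all genes 5829 to 7661 were called higher and 5743 to 6827 lower over the alternatives other than the call rule. The calves and bulls were different animals, so equal replicate numbers of the labels do not pair them. Correlations of deviations were −0.03 to −0.01 at equal numbers and −0.01 to 0.03 at unequal numbers, which cannot decide on a pairing. With the replicate number as a block 7 members were higher and 11 lower, as without it.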

Other observations

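The table also lists 3 genes under LOC names that it describes as similar to a ZBTB protein and that were not counted as members. LOC789869, described as similar to the ZBTB8B protein, had 16, 30 and 43 counts in mature libraries and 7, 18 and 13 counts in immature libraries and was called higher, as ZBTB8B was. LOC786231, described as similar to the ZBTB26 protein, had 0 counts in every library, and LOC782337, described as similar to the ZBTB14 protein, had 1 count in all libraries together. How reads were divided between LOC789869 and ZBTB8B is not known from the sources used here.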
